A study of Danio rerio with 30 samples.

Results

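The subject is the change between 5 and 10 days post fertilisation (dpf) in the heads of control zebrafish, with genes of pancreas, liver and intestine held apart from genes of head tissues. The members are the 6 control arrays at these ages, 3 at 10 dpf and 3 at 5 dpf, of 30 arrays in the series, chosen by their sample titles. All fish were of the AB strain, and each array holds RNA from 1 pool of 5 fish, with the tissue in front of the gills taken whole. Control embryos received a standard morpholino, an antisense oligonucleotide against human beta-globin with no intended target in fish, and knockdown embryos a morpholino against a splice donor of grb10a, which encodes an adaptor that dampens insulin receptor signalling. Both were injected once, early in cleavage and into the yolk, together with a fluorescent protein mRNA, and embryos with weak or uneven fluorescence were discarded. Larvae stayed in egg water until 5 dpf and then moved to the aquarium system, where fry ate powdered food and rotifers. Knockdown heads at 10 dpf and at 5 dpf, 3 arrays each, are set beside the controls. They were chosen because earlier results of these data showed few pancreas, liver and intestine transcripts in them at both ages. They share no array with the controls. Nothing in the labels says whether the pools of a group came from separate clutches, so p-values measure the spread between pools.

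Between these ages a zebrafish larva uses up its yolk, begins to feed and goes on growing its retina, lens and brain. The liver, pancreas and intestine lie behind the gills, so a head sample is not meant to hold them. In the eye, cone and rod photoreceptors turn light into a voltage change through an opsin, a transducin G protein and a cyclic GMP phosphodiesterase, and lens fibre cells fill with crystallins.

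Across 19260 named genes, values are log2 signals, so that a difference of 1 is a doubling of signal. The test was limma's moderated test over all 30 arrays, with Benjamini-Hochberg adjustment over all genes and a threshold of 0.05. In control heads 2652 genes were higher at 10 dpf than at 5 dpf (13.8% of those tested) and 2831 were lower (14.7%), 28.5% in all, and the median difference over all genes was -0.02. In knockdown heads 1030 genes were higher (5.35%) and 560 lower (2.91%), 8.26% in all, with a median of 0.01. Counts of list members given below stand beside these shares over all genes. The change differed between control and knockdown heads for 1931 genes (10.0%), being larger in controls for 739 (3.84%) and smaller, or more negative, for 1192 (6.19%). The balance of these counts turned when arrays were centred on the median of all genes, to 1508 larger and 996 smaller in controls, 832 higher and 916 lower in knockdown heads, and 3417 higher and 2509 lower in control heads. The knockdown counts leaned on single arrays: without array 1 at 5 dpf they were 502 higher and 329 lower, and without array 2 at 10 dpf they were 535 higher and 317 lower. Array medians lay between 5.51 and 5.63 over the 30 arrays, and replicates correlated at 0.971 to 0.976 among the 10 dpf controls and at 0.978 to 0.983 among the 5 dpf controls. The grb10a signal was 8.20, 7.95 and 7.75 in control heads at 10 dpf and 8.05, 8.21 and 8.03 at 5 dpf, while knockdown heads had 8.24, 8.16 and 7.97 at 10 dpf and 9.28, 9.10 and 8.95 at 5 dpf. Its signal was thus not below the control level in knockdown heads; the place of the probe set relative to the blocked splice site was not examined, and the gene checks no label.

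Falls reached far larger sizes than rises. Among genes past the threshold in controls, 774 fell and 256 rose by a log2 difference of at least 1, 234 fell and 20 rose by at least 2, and 51 fell and none rose by at least 4. Of the 51 falls of that size, 36 were on a list of visceral genes, which here means pancreas, liver, intestine, yolk, kidney and swim bladder. All 51 differed from the change in knockdown heads, and 2 of them also fell there. Among the 234 falls of at least 2, 87 were on a visceral list, 12 on a list of heart, skeletal muscle or hox genes, and 135 on neither. Of the 234, 219 (93.6%, against 10.0% of all genes) differed from knockdown heads. The test of the difference includes the control fall by which these genes were picked. High shares are therefore largely built in and support nothing further. Of the 256 rises of at least 1, 126 (49.2%, against 5.35% of all genes) also rose in knockdown heads, and of the 20 rises of at least 2, 16 did.

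**Figure D1:**
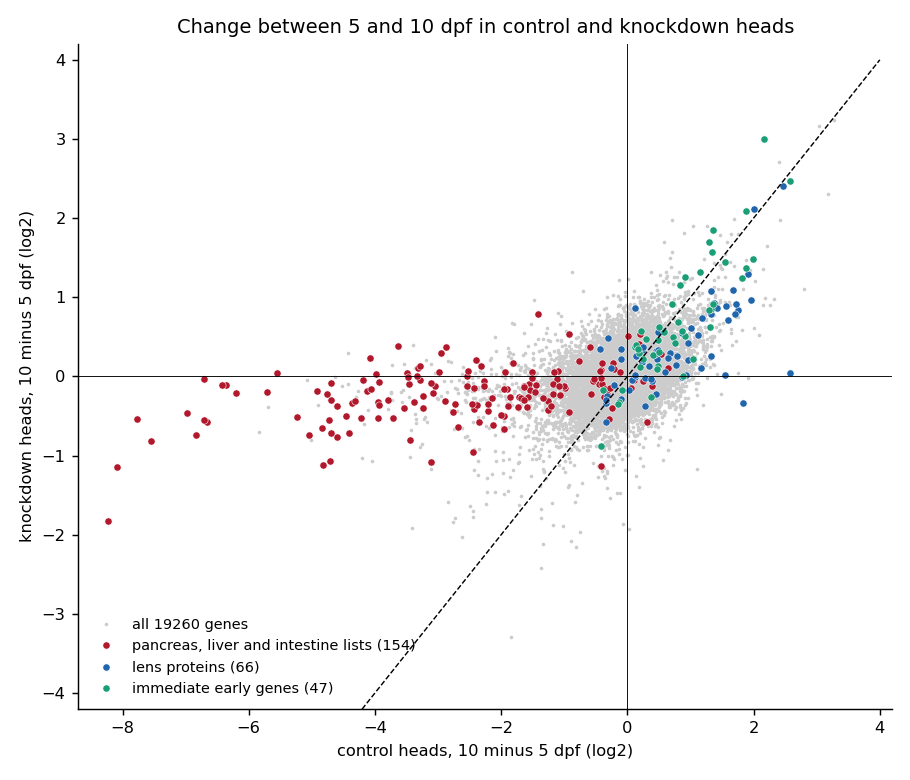
Each point is a gene, with its log2 difference between 10 and 5 dpf in control heads across and in knockdown heads up. Genes of the pancreas, liver and intestine lists (red) reach -8.22 in controls and mostly lie near 0 in knockdown heads, whereas lens proteins (blue) and immediate early genes (green) lie mostly to the upper right, and the dashed line marks equal change.

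At 5 dpf the control arrays held signal of genes typical of organs behind the gills as well as of head genes. An eye gene was bright at both ages: gnat2, the transducin subunit of cones, had a mean log2 signal of 12.26 in control heads at 10 dpf and 11.47 at 5 dpf. The skin keratin krt5, which does not tell head from trunk, had 11.69 and 11.15 at the same ages. Alongside these, the 5 dpf control heads carried transcripts of digestive enzymes and plasma proteins. The mean log2 signal over the 154 genes listed for exocrine pancreas, liver and intestine was 5.04, 5.19 and 5.05 in the 10 dpf controls and 7.72, 7.75 and 7.66 in the 5 dpf controls. Knockdown heads had 5.24, 5.09 and 5.09 at 10 dpf and 5.62, 5.32 and 5.17 at 5 dpf. The 3 control arrays at 5 dpf therefore stood above every other array of the 4 groups, and of the knockdown arrays at 5 dpf the first was highest. On the linear scale these 154 genes made up 0.241% ± 0.021 of the signal of all named genes in control heads at 10 dpf and 3.24% ± 0.016 at 5 dpf, against 0.238% ± 0.0031 in knockdown heads at 10 dpf and 0.295% ± 0.07 at 5 dpf (SD, n = 3 each). At 15, 20 and 30 dpf the control mean of the 154 genes was 5.32, 5.08 and 5.25, nearer the 10 dpf level than the 5 dpf level. In controls the exocrine pancreas list alone averaged 5.68, 4.93 and 5.25 at these ages, 4.98 at 10 dpf and 8.99 at 5 dpf. The linear share is descriptive, since array signals of different probe sets are not on a common scale. In pooled tissue, fewer cells of a type and less RNA per cell cannot be told apart, and whether the cut lay further back in some groups was not tested.

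The exocrine pancreas list fell almost whole. Of its 30 measured genes 26 fell and none rose in control heads, with a median difference of -4.28. In knockdown heads none passed in either direction and the median was -0.20. Of the 30, 24 changed by a different amount in the 2 kinds of head. Knockdown heads were chosen for their few pancreas, liver and intestine transcripts at both ages. For these lists a smaller change there, and so a difference from controls, follows from that choice and is given as description only. Trypsin is represented by prss59.1, whose signal was 4.99, 5.35 and 5.20 in control heads at 10 dpf and 13.33, 13.26 and 13.23 at 5 dpf, a difference of -8.09 ± 0.61 (SE, limma adjusted p = 9.6e-11). Its 2 groups lay far apart, and knockdown heads had 6.17, 4.53 and 6.50 at 10 dpf and 7.10, 7.11 and 6.42 at 5 dpf, all below the 5 dpf controls. Near-identical trypsin copies may share this signal. Chymotrypsinogen B (ctrb.3) fell by 6.98, carboxypeptidase A5 (cpa5) by 6.83, elastase 2 (ela2) by 6.42 and pancreatic amylase (amy2a) by 6.35. Detection calls were not used here, and genes with a mean under 6.06 are called dim. This limit was set by the ranking of gene means over the 30 arrays and is not a measured background. Of the 154 genes 137 were dim in the 10 dpf controls against 32 in the 5 dpf controls. Of all 19260 genes 6993 and 6428 were dim in these groups. Falls that end below this limit, as that of prss59.1 does, may have sizes bounded by the dim signal, and no order is read from them.

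Genes listed for the endocrine pancreas changed less. Of 16 listed genes 5 fell and 2 rose in control heads. At 5 dpf 8 of the 16 were already dim in controls, against 5 of the 30 exocrine pancreas genes. Smaller falls here cannot be told apart from a lack of signal to lose. The insulin gene ins fell to 6.02, 6.29 and 5.42 at 10 dpf, against 6.86, 7.22 and 7.30 at 5 dpf, a difference of -1.22 ± 0.23 (SE, adjusted p = 0.00019). Glucagon (gcga) fell by 0.94 and somatostatin 2 (sst2) by 1.68, both with 10 dpf arrays below all 5 dpf arrays. In knockdown heads ins differed by -0.36, gcga by -0.12 and sst2 by -0.35, none past the threshold, and the difference between the 2 changes passed for gcga (adjusted p = 0.019) and sst2 (0.0011) but not for ins (0.088). The 2 rises were pcsk1, a prohormone convertase, and neurod1, a neuronal transcription factor, both of which are also active in brain; they were picked out after their values were seen.

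Liver genes followed the exocrine pancreas. Of 69 genes 61 fell and 1 rose (fabp10b, a fatty acid binding protein, by 0.64, a call lost without control array 2 at 10 dpf), with a median of -2.54; in knockdown heads 2 fell, 1 rose and the median was -0.23. The plasma protein fetuin B (fetub) had 4.40, 4.81 and 4.63 in control heads at 10 dpf, all dim, against 12.80, 12.88 and 12.83 at 5 dpf, a difference of -8.22 ± 1.01 (SE, adjusted p = 5.6e-07). Knockdown heads at 5 dpf had 10.13, 4.54 and 5.42, with the first array far above the other two. Apolipoprotein B (apobb.1), the scaffold of secreted lipoproteins, fell by 7.55 and showed the same array apart, at 7.0, 5.10 and 4.90 in knockdown heads at 5 dpf. The lipoprotein lipase cofactor apoc2 fell by 6.65, the thyroid hormone carrier transthyretin (ttr) by 4.07, fibrinogen beta (fgb) by 3.95 and cyp7a1, the rate-limiting enzyme of bile acid synthesis, by 2.73. The hepatocyte transcription factor hnf4a fell by 1.55, with 4.57, 5.01 and 5.35 in control heads at 10 dpf and 6.46, 6.63 and 6.48 at 5 dpf. For each of the falling liver genes named here the change differed from that in knockdown heads, which again follows from the choice of knockdown heads.

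Intestinal genes fell in 40 of 55 cases and rose in none, with a median of -1.56 in control heads and -0.15 in knockdown heads, where 3 rose and 3 fell. The intestinal fatty acid binding protein fabp2 had 6.54, 5.49 and 6.03 in control heads at 10 dpf and 10.60, 10.41 and 10.27 at 5 dpf, a difference of -4.41 ± 0.35 (SE, adjusted p = 2.4e-10). The groups did not overlap, and knockdown heads reached at most 6.87 at 5 dpf. Apolipoprotein A1 (apoa1a) fell by 4.92, the triglyceride-making enzyme dgat2 by 4.72, the peptide transporter slc15a1b by 3.94 and the brush border protein villin (vil1) by 2.40. In knockdown heads dgat2 fell too, by 1.07 (adjusted p = 0.0032). Apolipoprotein E (apoea), on the yolk list, fell by 3.75 in control heads, and 6 of the 15 yolk genes fell. Of 27 kidney genes 14 fell and 1 rose; pdzk1, a scaffold of brush border transporters, fell by 3.58.

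**Figure D2:**
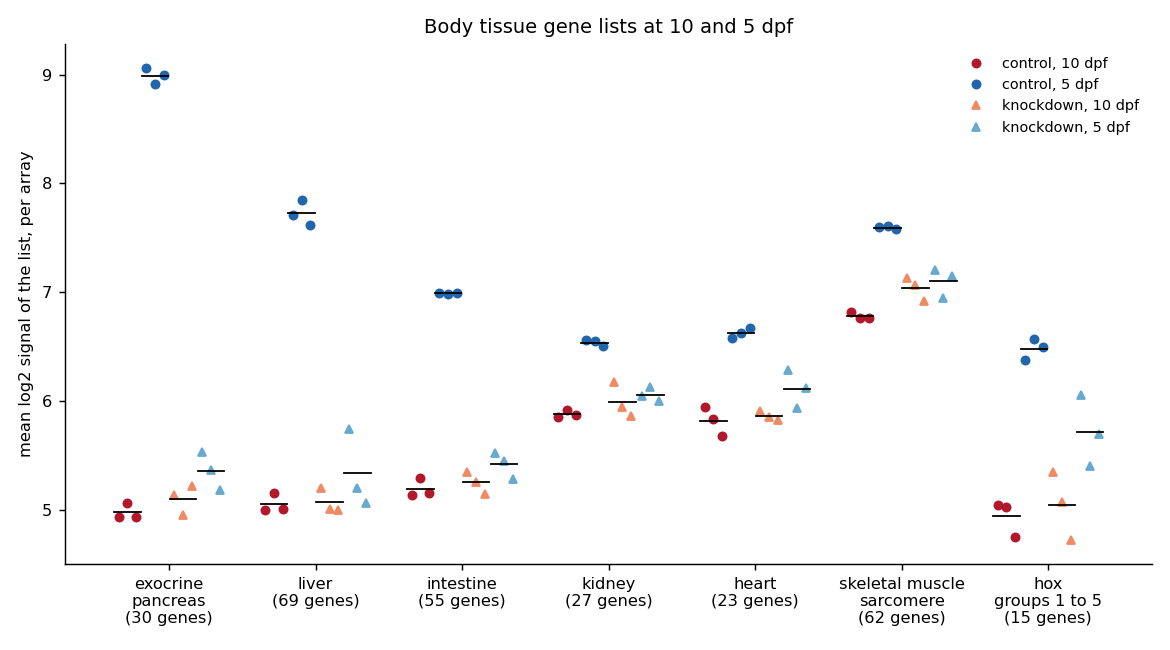
Each point is the mean log2 signal of a gene list on 1 array, and bars are means of 3 arrays. Control heads at 5 dpf (dark blue) lie above the other 3 groups for all 7 lists, from 8.99 for exocrine pancreas, where control heads at 10 dpf average 4.98, to 6.48 for hox groups 1 to 5, where they average 4.94.

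Many large falls were of genes on no visceral list. The 20 largest of these in controls, led by plac8.1 (-5.83) and the alpha-2-macroglobulin gene a2m2h (-5.70), all differed from the change in knockdown heads, and 2 of the 20 passed in knockdown heads. They were picked by the control change that the test of the difference includes, so that all differed supports nothing further. Across the 24 arrays of the other groups, centred within each group, 13 of the 20 correlated above 0.5 with the mean of the 154 visceral genes, against 460 of all 19260 genes and 60 of the 154 themselves. These correlations describe genes read on the same pools of tissue and carry no test. Each of the 154 genes is itself part of the mean it is set against. The tyrosine-degrading enzyme hpda (r = 0.85), selenoprotein P (selenop2, 0.68), guanidinoacetate methyltransferase of creatine synthesis (gamt, 0.65) and angiotensinogen (agt, 0.51) were among those that moved with the visceral mean. The inositol oxygenase gene miox did not (r = -0.02), although its signal was 5.09, 4.86 and 5.10 in control heads at 10 dpf and 9.39, 9.67 and 9.53 at 5 dpf, a difference of -4.52 ± 0.17 (SE). Its knockdown arrays at these ages all lay between 5.09 and 5.45, next to the 10 dpf controls. As miox was dim on these knockdown arrays, they cannot show whether it moves with the visceral mean. The correlation also rests on arrays of later ages, for which its signal is not given here. The uncoupling protein gene ucp1 fell by 4.05, with r = 0.36. In contrast, gamt fell by 4.21 in control heads and by 1.03 in knockdown heads (adjusted p = 0.0028), and at 10 dpf its signal of 7.11, 7.40 and 7.46 remained above the dim limit.

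Many skeletal muscle and heart genes fell as well. Of 62 sarcomere genes 37 fell and 2 rose in control heads (median -0.77), against 2 falls and 3 rises in knockdown heads (median -0.05), and the change differed for 32, each more negative in controls. The fast-muscle alpha-actinin actn3a had 7.76, 7.20 and 7.30 in control heads at 10 dpf and 9.90, 9.83 and 9.64 at 5 dpf, a difference of -2.37 ± 0.16 (SE, adjusted p = 1.5e-11), with no overlap. In knockdown heads it had 8.16, 7.96 and 7.95 at 10 dpf and 8.47, 7.78 and 8.29 at 5 dpf, between the 2 control groups. Fast myosin light chain (mylpfb) fell by 2.51, and of the 34 genes of calcium handling and energy supply, 21 fell. Parvalbumin (pvalb1) fell by 2.35 and muscle creatine kinase (ckma) by 1.40. At 10 dpf mylpfb was dim in controls, with a mean of 5.01, and pvalb1 and ckma were not. A member that rose was xirp1, a protein of muscle attachment sites, by 1.04 in control heads and 0.73 in knockdown heads. Of 23 heart genes 15 fell and none rose (median -0.63): the cardiac myosin light chain myl7 fell by 1.98 and the cardiac and endodermal factor gata4 by 1.79. The myl7 signal varied among the 10 dpf controls, at 6.69, 5.23 and 5.04. Over the muscle lists the linear signal share was 0.633% ± 0.019 in control heads at 10 dpf and 1.45% ± 0.017 at 5 dpf, against 0.741% ± 0.029 and 0.853% ± 0.11 in knockdown heads (SD, n = 3 each).

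The hox genes, whose paralog number runs from the hindbrain (low) to the tail (high), fell in part in control heads. Among the 15 genes of groups 1 to 5, 14 fell and none rose, with a median of -1.59. In knockdown heads 6 fell, none rose and the median was -0.67. Which part of the body axis lost these signals was not tested. Of 28 genes of groups 6 to 13, 13 fell and none rose in controls (median -0.58), and 3 fell in knockdown heads (median -0.35); the count of 13 was 8 without control array 3 at 10 dpf. At 5 dpf 25 of these 28 genes were already dim in controls, against 4 of the 15 of groups 1 to 5, so smaller falls at high numbers cannot be told apart from a lack of signal to lose. The group 5 median was -2.33, with 4 of 4 genes fallen, and that of group 13 was -0.29, with 1 of 6 fallen. Signals of hoxb5b were 4.69, 4.23 and 4.37 in control heads at 10 dpf and 6.85, 7.17 and 7.01 at 5 dpf, a difference of -2.58 ± 0.30 (SE, adjusted p = 2.7e-07); knockdown heads had 5.57, 4.68 and 4.40 at 10 dpf and 6.46, 4.98 and 5.49 at 5 dpf, where the first array was again highest. The falls were 2.43 for hoxc5a, 2.37 for hoxb4a, 1.98 for hoxc6a and 1.57 for hoxc8a. Of these, hoxc5a and hoxb4a fell in knockdown heads as well, by 1.18 and 1.08.

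Neuronal genes that fell in both kinds of head included slc6a5, glra1 and mnx1, which stand for no list. The glycine transporter slc6a5, which marks inhibitory glycinergic neurons, had 7.40, 7.04 and 6.41 in control heads at 10 dpf and 9.26, 9.47 and 9.48 at 5 dpf, a difference of -2.45 ± 0.32 (SE, adjusted p = 1.5e-06). It also fell in knockdown heads, by 1.70 (adjusted p = 0.0012), with the first 5 dpf array highest at 9.30, and the difference between the 2 changes did not pass (adjusted p = 0.32). The glycine receptor subunit glra1 fell by 0.57 in controls and by 0.59 in knockdown heads, and the motor neuron factor mnx1, which beta cells also use, by 1.35 and 0.86.

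**Figure D3:**
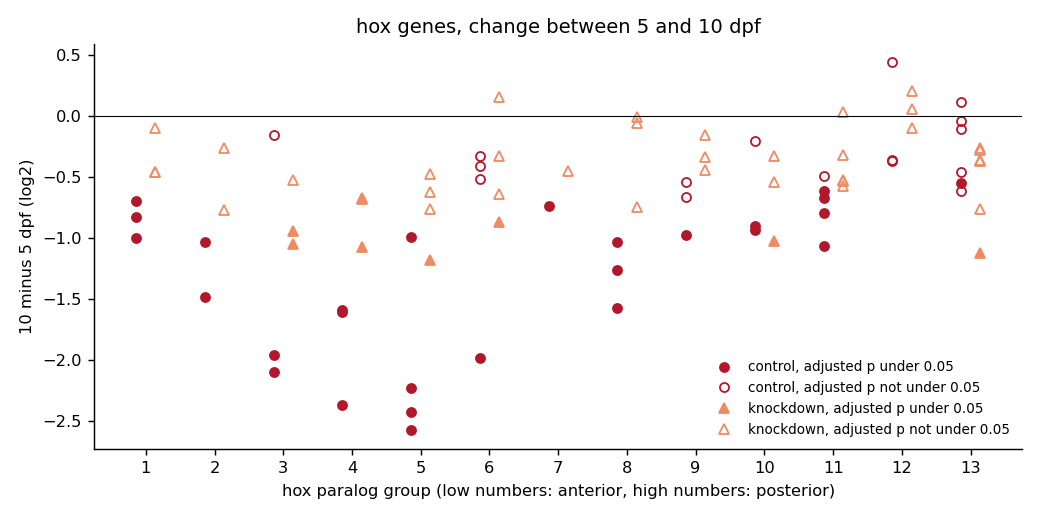
Each point is a hox gene, placed by paralog group, with its log2 difference between 10 and 5 dpf in control (red circles) and knockdown (orange triangles) heads; filled points passed the adjusted threshold of 0.05. Controls reach -2.58 in group 5 and lie nearer 0 in groups 12 and 13, and most knockdown points lie between 0 and -1.

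Genes of the eye rose more often than they fell. Of 8 visual opsins 4 rose in control heads and none fell, and 2 of them also rose in knockdown heads. The red cone opsin opn1lw1 was 7.98, 7.19 and 8.16 in control heads at 10 dpf and 4.76, 5.25 and 4.24 at 5 dpf, a difference of 3.03 ± 0.25 (SE, adjusted p = 6.3e-10). Knockdown heads showed a near-equal step of 3.16, with 9.02, 8.83 and 8.16 at 10 dpf and 5.70, 5.70 and 5.13 at 5 dpf, so both pairs of groups were fully apart. Its tandem neighbour opn1lw2 was bright at both ages, with 11.53, 10.92 and 10.90 in control heads at 10 dpf and 10.18, 10.48 and 9.86 at 5 dpf, and rose by 0.94. The blue cone opsin opn1sw2 rose by 1.65 in controls and by 1.08 in knockdown heads. The ultraviolet cone opsin opn1sw1 rose by 0.34, a call that was lost without control array 1 at 10 dpf (0.27), and the green cone opsin opn1mw1 differed by 0.44 without passing (adjusted p = 0.31).

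Rod genes rose in 9 of 20 cases (45.0%, against 13.8% of all genes) and fell in none (median 0.44), and 5 of the 9 also rose in knockdown heads. Rod transducin (gnat1) had 10.57, 10.20 and 10.59 in control heads at 10 dpf and 9.34, 9.34 and 9.48 at 5 dpf, a difference of 1.07 ± 0.14 (SE), and rose by 0.73 in knockdown heads. The rod phosphodiesterase subunit pde6a rose by 0.96 in controls and 1.04 in knockdown heads. For gnat1 and pde6a the difference between the changes in control and knockdown heads did not pass (adjusted p = 0.30 and 0.88).

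Cone genes separated into those that rose in controls and those that fell. Of 35 cone transduction genes 22 rose (62.9%, against 13.8% of all genes) and 4 fell (11.4%) in control heads (median 0.55), against 3 rises and 8 falls in knockdown heads (median 0.06), and 16 changed by a different amount, each more positive in controls. The mean log2 signal of the list was 8.54 in control heads at 10 dpf and 8.05 at 5 dpf, against 8.31 and 8.49 in knockdown heads. Whether the 5 dpf controls held a smaller share of eye tissue was not tested. The cone opsin kinase grk1b was 10.35, 10.05 and 9.96 in control heads at 10 dpf and 8.52, 8.39 and 8.50 at 5 dpf, a difference of 1.65 ± 0.14 (SE, adjusted p = 7.4e-10). In knockdown heads it was 9.65, 9.44 and 9.84 at 10 dpf and 8.91, 9.61 and 9.23 at 5 dpf, a difference of 0.40 that did not pass (adjusted p = 0.079). Cone transducin (gnat2) rose by 0.79 and its gamma subunit gngt2a by 2.14, with gngt2a spread widely at 7.70, 5.93 and 7.18 in the 10 dpf controls. The guanylate cyclase gucy2d had opposite signs, rising by 0.68 in control heads and falling by 0.80 in knockdown heads, and the difference of 1.48 passed (adjusted p = 9.1e-06).

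All 4 cone genes that fell in controls also fell in knockdown heads. They were the cone opsin kinase grk7a (-0.89 in controls, -2.08 in knockdown heads) and the calcium sensors of guanylate cyclase guca1c (-0.74 and -1.97), guca1d (-1.37 and -2.42) and guca1g (-1.17 and -1.88). The signal of guca1d was 5.64, 6.24 and 5.76 in control heads at 10 dpf and 7.39, 7.15 and 7.21 at 5 dpf, and 5.15, 5.45 and 5.14 in knockdown heads at 10 dpf and 7.19, 7.92 and 7.89 at 5 dpf. The fall was larger in knockdown heads for grk7a, guca1c and guca1d by the test of the difference, and for guca1g this test did not pass (adjusted p = 0.088). The retinol binding protein rbp4l moved like them, at 9.63, 9.95 and 9.59 in control heads at 10 dpf and 10.83, 10.64 and 10.74 at 5 dpf, a fall by 1.01 against a fall by 1.89 in knockdown heads.

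**Figure D4:**
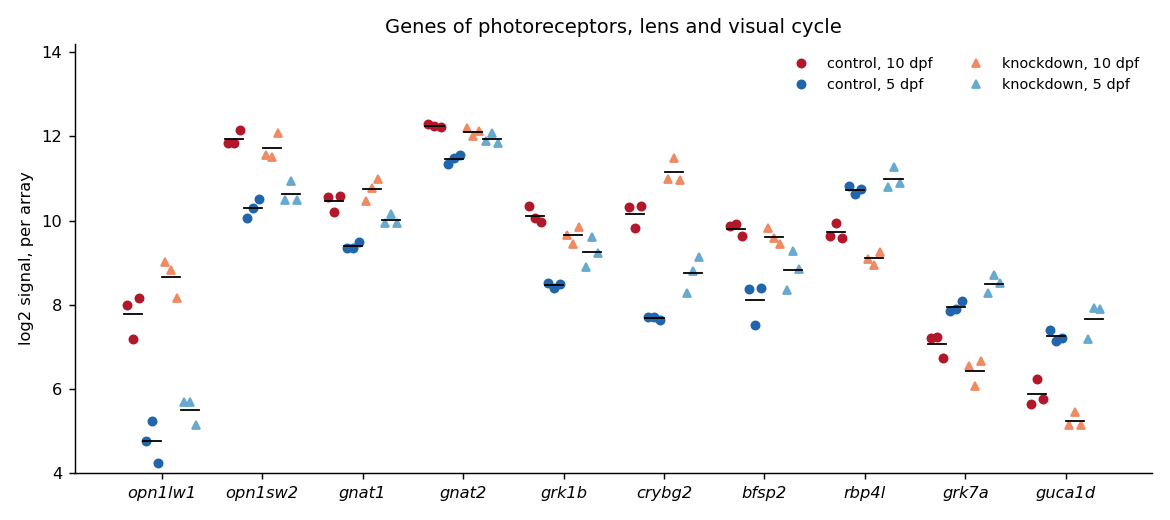
Each point is the log2 signal on 1 array and bars are means of 3, for control heads at 10 and 5 dpf (circles) and knockdown heads at 10 and 5 dpf (triangles). From opn1lw1 to bfsp2 the 10 dpf controls lie above the 5 dpf controls, and for rbp4l, grk7a and guca1d they lie below them.

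Pigment epithelium and inner retina added fewer changes. The melanosome protein pmelb rose by 1.27 in control heads and 1.90 in knockdown heads. Of 30 inner retina genes 8 rose and none fell in controls, while 1 rose and 6 fell in knockdown heads. The bipolar cell calcium sensor cabp5a rose by 1.18, and grm6b, a metabotropic glutamate receptor of ON bipolar cells, by 0.89 in controls against a difference of -0.12 in knockdown heads. The interaction passed for grm6b (adjusted p = 0.0048) and not for cabp5a (0.36).

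Lens proteins rose in 29 of 66 cases (43.9%, against 13.8% of all genes) and fell in none (median 0.53), and 11 of the 29 also rose among the 12 that rose in knockdown heads. The crystallin-related gene crybg2 had 10.31, 9.82 and 10.34 in control heads at 10 dpf and 7.71, 7.71 and 7.64 at 5 dpf, a difference of 2.47 ± 0.19 (SE, adjusted p = 9.3e-11); in knockdown heads the difference was 2.40. The filament proteins of lens fibre cells rose as a pair, bfsp1 by 1.75 and bfsp2 by 1.70, with 9.86, 9.92 and 9.63 for bfsp2 in control heads at 10 dpf and 8.38, 7.53 and 8.40 at 5 dpf. Gamma crystallin crygn1 rose by 1.90 in controls and by 1.30 in knockdown heads, and alpha crystallin cryaa by 1.33, a call lost without control array 1 at 10 dpf (0.83). Of 19 genes of the crygm2 family, whose copies are so alike that probe sets may share signal, 9 rose and none fell in controls. Within it crygm2e rose by about as much in controls (2.00) as in knockdown heads (2.11), from signals that stayed dim. By contrast crygm2d16 rose by 2.57 and crygm2d17 by 1.83 in controls, against 0.05 and -0.34 in knockdown heads, whose 10 dpf arrays ranged from 4.79 to 8.24 for crygm2d16. Keratocan (kera), the proteoglycan of the cornea, rose by 1.76 in controls and by 1.81 in knockdown heads.

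Neurotransmitter receptors carry fast signals between neurons of the brain. Of 59 subunits of glutamate, GABA and glycine receptors 29 rose (49.2%, against 13.8% of all genes), 1, glra1, fell and 29 passed in neither direction in control heads (median 0.33), whereas none rose and 3 fell in knockdown heads (median -0.13), and 14 changed by a different amount. The count of 29 was 18 without control array 2 at 5 dpf. The mean log2 signal of the list was 7.86 in control heads at 10 dpf and 7.57 at 5 dpf, against 7.72 and 7.86 in knockdown heads, so the 5 dpf controls were lowest. Whether these 5 dpf controls held a smaller share of brain tissue was not tested. The obligatory NMDA receptor subunit grin1b was 11.32, 11.36 and 11.01 in control heads at 10 dpf and 10.40, 10.36 and 10.29 at 5 dpf, a difference of 0.88 ± 0.11 (SE, adjusted p = 1.1e-06). Knockdown heads had 10.75, 10.77 and 10.91 at 10 dpf and 10.92, 11.05 and 11.01 at 5 dpf, so that at 5 dpf they lay above the controls and at 10 dpf below them. The kainate receptor subunit grik1a rose by 0.90, the AMPA receptor subunit gria3a by 0.84 and the NMDA receptor subunit grin2bb by 0.73 in controls, with differences of 0.11, 0.07 and -0.11 in knockdown heads that did not pass. For all 4 subunits the difference between the 2 changes passed.

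Other neuronal lists are set beside the shares over all genes, 13.8% for rises and 14.7% for falls. On the neuron and synapse list of 85, 21 rose (24.7%) and 11 fell (12.9%) in controls, with a median of 0.03, and the rises were 13 without control array 2 at 5 dpf. The neuronal intermediate filament inaa rose by 1.07, and nefmb, a neurofilament of long axons, fell by 1.1 in controls and by 0.72 in knockdown heads. The tubulin gene tubb5 fell by 1.06. Among 71 genes of neural progenitors and early neurons 5 rose (7.04%) and 13 fell (18.3%; 8 genes without control array 3 at 10 dpf): the eye and brain factor pax6a rose by 1.07 in controls, with 8.99, 9.17 and 9.31 at 10 dpf and 8.17, 7.89 and 8.21 at 5 dpf, and the forebrain interneuron factor dlx2a fell by 0.89. The GABA transporter slc6a11b of glia fell by 0.69. Of 37 oligodendrocyte and myelin genes 3 rose and 9 fell, with a median of -0.05 whose sign turned when arrays were centred on all genes. The lipid hydroxylase fa2h fell by 1.05 and had r = 0.55 with the visceral mean in the other arrays. Whether the fa2h fall belongs with those of the visceral lists was not tested.

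The list of hypothalamic and other neuropeptides, which also holds peptide-processing enzymes and granins, had 20 rises (32.8%) and 6 falls (9.84%) among 61 genes in control heads (median 0.11) and 5 rises and 1 fall in knockdown heads. The gonadotropin-releasing hormone genes moved alike: gnrh3 had 7.13, 6.59 and 7.36 in control heads at 10 dpf and 5.40, 5.80 and 5.36 at 5 dpf, a difference of 1.51 ± 0.18 (SE), and gnrh2 rose by 1.45. Both rose in knockdown heads by less, 0.68 and 0.66, and the difference passed for both (adjusted p = 0.036 and 0.030). Oxytocin (oxt) rose by 1.27 in controls and 0.97 in knockdown heads, and pmchl, a melanin-concentrating hormone precursor, by 1.30. The pituitary receptor for growth hormone-releasing hormone, ghrhra, rose by 1.00. The vasoactive intestinal peptide gene vipb, which gut neurons also express, fell by 0.89, with r = 0.67 to the visceral mean. Whether this fall belongs with those of the visceral lists was not tested.

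Of 45 genes of the inner ear and hair cells 15 fell (33.3%, against 14.7% of all genes), 5 rose and 25 passed in neither direction in controls, and 6 fell in knockdown heads. Otoliths are the mineral bodies by which the ear senses gravity. Otolith matrix protein (otomp) was 6.18, 4.98 and 4.58 in control heads at 10 dpf and 8.68, 8.83 and 8.44 at 5 dpf, a difference of -3.41 ± 0.42 (SE, adjusted p = 5.3e-07). It fell in knockdown heads by 1.91, with 7.81, 5.60 and 7.24 at 5 dpf. Starmaker (stm), which shapes the otolith crystal, fell by 2.23 and 1.61 in the 2 kinds of head, and tectb, a tectorin of the otolithic membrane, by 1.52 and 1.05. For none of these 3 did the difference between control and knockdown heads pass. The tip-link protein of hair cells pcdh15a rose by 0.58 in controls.

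Of 37 cartilage genes 17 fell (45.9%, against 14.7% of all genes), 1 rose and 19 passed in neither direction in controls (median -0.34), and 3 fell in knockdown heads. Matrilin 1 (matn1) was 9.89, 8.18 and 8.52 in control heads at 10 dpf and 10.59, 10.80 and 10.58 at 5 dpf, a difference of -1.80 ± 0.28 (SE, adjusted p = 2.4e-05), with control array 1 nearest to the 5 dpf level. Epiphycan (epyc) fell by 1.30 and type II collagen (col2a1a) by 1.23, with the first 10 dpf array, at 8.91, inside the 5 dpf range. Of 37 bone genes 5 rose (13.5%) and 8 fell (21.6%), against 13.8% and 14.7% of all genes: the osteoblast factor sp7 fell by 0.72, osteopontin (spp1) by 0.85, and tcirg1a, a proton pump subunit of osteoclasts, rose by 1.45. The collagen chaperone serpinh1b fell by 1.37 in controls and by 1.67 in knockdown heads. Of 15 tooth and enamel matrix genes 6 fell and none rose. The secreted phosphoprotein gene scpp5 had 5.46, 4.63 and 4.82 in control heads at 10 dpf and 8.26, 8.24 and 8.26 at 5 dpf, a difference of -3.29 ± 0.31 (SE), against 6.23, 5.79 and 6.45 in knockdown heads at 5 dpf. Its relative scpp9 fell by 2.55 and odam, expressed by tooth epithelium, fell by 2.20. Zebrafish teeth form on the last gill arch.

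Ionocytes are the ion-transporting cells of fish skin and gills. Of 29 ionocyte genes 14 fell (48.3%) and none rose in controls (median -0.47), and 4 fell in knockdown heads. The sodium pump subunit atp1a1a.4 was 5.02, 4.90 and 4.67 in control heads at 10 dpf and 8.55, 8.22 and 8.04 at 5 dpf, a difference of -3.40 ± 0.18 (SE, adjusted p = 2.1e-13), with knockdown arrays from 4.83 to 5.90. Of these groups only the 5 dpf controls were above the dim limit, a pattern shared with many pancreas, liver and intestine genes. Whether its signal came from ionocytes of the head or from tissue of the trunk was not tested. The gel-forming mucin muc5.2 fell in both kinds of head, by 1.96 and 1.49. Of 49 keratin and barrier genes 3 rose and 14 fell (28.6%), among which the epidermal keratin krt5 rose by 0.55 in controls and 0.50 in knockdown heads. The thymic chemokine ccl25a fell by 1.91 and the granulin gene grna.2 rose by 2.15, by 1.35 in knockdown heads.

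**Figure D5:**
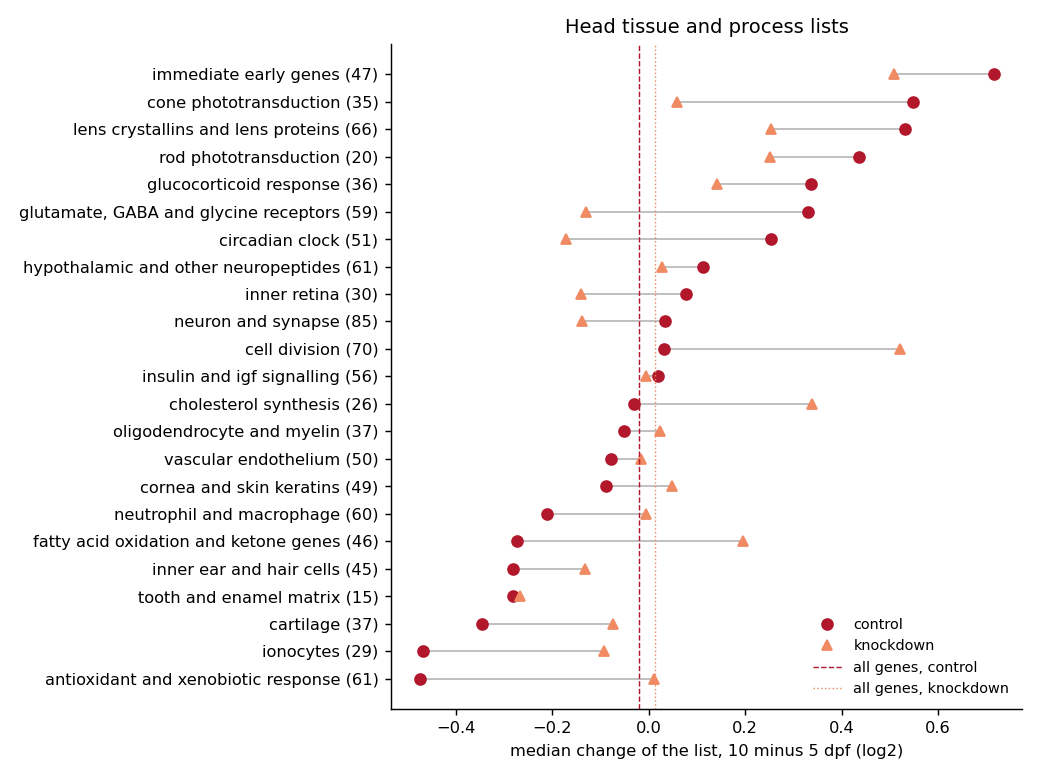
For 23 lists of head tissues and cell processes, the median log2 difference of the members between 10 and 5 dpf is shown in control (red circles) and knockdown (orange triangles) heads, with the number of genes in brackets and lines for the median of all genes. Control medians run from -0.47 for antioxidant genes to 0.72 for immediate early genes, and for cell division and neurotransmitter receptors the medians of the 2 kinds of head lie apart.

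Immediate early genes, which neurons and other cells switch on within minutes of a stimulus, formed the list with the highest median. Of 47, 30 rose (63.8%, against 13.8% of all genes) and 1 fell in controls (median 0.72), 21 rose and 1 fell in knockdown heads (median 0.51), and 19 rose in both. The Fos gene fosab was 12.34, 10.16 and 11.22 in control heads at 10 dpf and 8.22, 9.16 and 8.61 at 5 dpf, a difference of 2.58 ± 0.49 (SE, adjusted p = 0.00027). The falling member, nr4a2a (-0.41), lost its call without control array 1 or 3 at 5 dpf or array 3 at 10 dpf, at -0.33, -0.39 and -0.31. For fosab the 10 dpf arrays were far apart but all above the 5 dpf arrays, and knockdown heads had 11.40, 11.10 and 11.41 at 10 dpf. For fosb the second 10 dpf control, at 5.53, lay close to the 5 dpf controls (5.15, 5.44 and 5.04). The rises were 1.87 for fosl1a, 1.98 for the neuronal activity gene npas4a, 1.32 for egr1 and 1.55 for btg2. Over the whole list the mean per array was 7.95, 7.15 and 7.56 in control heads at 10 dpf and 6.70, 6.84 and 6.73 at 5 dpf. The cytokine feedback gene socs3a rose by 1.89 and cebpb, an acute response factor, by 1.21. The glucocorticoid target fkbp5 rose by 1.94, a call lost without control array 3 at 10 dpf (1.59). Of 36 genes of the glucocorticoid response, 16 rose (44.4%) and 7 fell (19.4%), against 13.8% and 14.7% of all genes.

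Clock genes changed in both directions. Of 51, 20 rose (39.2%) and 11 fell (21.6%) in controls, against 13.8% and 14.7% of all genes. In knockdown heads 14 rose and 17 fell, and 15 changed by a different amount, each more positive in controls. The repressors nfil3-2 and nfil3-5 were among the largest rises: nfil3-2 was 10.80, 10.68 and 11.01 in control heads at 10 dpf and 8.57, 8.42 and 8.52 at 5 dpf, a difference of 2.33 ± 0.17 (SE, adjusted p = 5.0e-11), and nfil3-5 rose by 2.18. The nuclear receptor rorcb, which activates transcription of clock genes, had 11.27, 11.27 and 11.07 in control heads at 10 dpf and 9.34, 9.19 and 9.07 at 5 dpf, a difference of 2.00. The core activators bmal1a and clocka rose by 1.09 and 1.25. In knockdown heads all 5 rose by less (0.97, 0.98, 0.61, 0.51 and 0.73 in the same order), and the difference passed for each. Falling clock genes were the repressor nr1d2b by 1.20, the period gene per3 by 0.72, a call lost without control array 3 at 10 dpf (-0.49), the photolyase-related cry5 by 1.34 and the activator tefa by 1.38; in zebrafish cry5 and tefa are known to be light-induced. Their falls in knockdown heads were 1.61, 1.35, 1.17 and 1.39. For tefa the signal was 6.52, 7.56 and 7.09 in control heads at 10 dpf and 8.46, 8.53 and 8.34 at 5 dpf. Fish lived in a light-dark cycle; the hour of sampling of each group, not given in the sources used here, was not tested for its part in these differences.

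Insulin and growth factor genes, the pathway in which Grb10 acts, were mixed. Of 56, 17 rose (30.4%) and 11 fell (19.6%) in controls (11 rises without control array 1 or 2 at 5 dpf or array 2 at 10 dpf), where 13.8% and 14.7% of all genes did. In knockdown heads 2 rose and 3 fell. The insulin receptor substrate irs1 was 7.83, 8.37 and 7.94 in control heads at 10 dpf and 6.82, 7.02 and 7.20 at 5 dpf, a difference of 1.03 ± 0.16 (SE, adjusted p = 1.5e-05), and irs2a rose by 0.90. The receptors insra, insrb and igf1rb rose by 0.44, 0.58 and 0.74. In knockdown heads these 5 genes differed by 0.18 or less in size, none past the threshold. The difference between the 2 changes passed for irs1, insrb and igf1rb. Whether any trunk tissue in the 5 dpf controls had a part in these differences was not tested. The IGF binding protein gene igfbp2a fell to 5.38, 5.83 and 5.86 at 10 dpf, against 7.12, 7.40 and 7.0 at 5 dpf. The arrestin-related gene arrdc3b rose by 2.25 in controls and 0.90 in knockdown heads. The stress-linked genes ndrg1b and ndrg1a rose in both: ndrg1b, the largest rise by the rule for named genes, was 11.27, 11.67 and 11.69 in control heads at 10 dpf and 8.17, 8.61 and 8.33 at 5 dpf (3.18 ± 0.24, SE), with a rise of 2.30 in knockdown heads.

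Cell division and metabolism changed in different ways in the 2 kinds of head. Of 70 division genes 8 rose (11.4%) and 3 fell (4.29%) in controls (median 0.03), both below the 13.8% and 14.7% over all genes. In knockdown heads 44 rose and none fell (median 0.52), where 5.35% of all genes rose and 2.91% fell. The change differed for 17, each more negative in controls. Centring or a second quantile normalization raised the control count to between 13 and 16. The topoisomerase top2a rose by 0.61 in controls and 0.91 in knockdown heads, and the replication factor gins1 by 0.92 and 1.03. Of 46 genes of fatty acid oxidation and ketone use 21 fell (45.7%, against 14.7% of all genes) and 2 rose in controls (median -0.27). In knockdown heads 3 of them fell and 8 rose (median 0.20). The change was more negative in controls for 20 and more positive for 1. The ketone-using enzyme oxct1b fell by 3.18 and acaa2, the last step of mitochondrial beta oxidation, by 1.05, while acaa2 rose by 0.46 in knockdown heads. The elongase elovl2, which makes long polyunsaturated fatty acids, was 6.68, 5.58 and 6.06 in control heads at 10 dpf and 6.92, 7.23 and 6.80 at 5 dpf, a fall by 0.87, and it rose by 1.32 in knockdown heads, so that the 2 changes differed by -2.20 (adjusted p = 7.2e-06). The last enzyme of cholesterol synthesis, dhcr7, fell by 1.16 in controls. The glycolytic enzyme gapdh had 9.27, 8.49 and 8.49 in control heads at 10 dpf and 11.70, 11.78 and 11.62 at 5 dpf, a difference of -2.95 ± 0.16 (SE), with knockdown arrays from 9.14 to 9.66. This gene is also on the muscle list of calcium handling and energy supply, and whether its fall belongs with the muscle falls was not tested. Of 61 antioxidant and xenobiotic genes 29 fell (47.5%, against 14.7% of all genes) and 2 rose in controls (median -0.47), and the exporter abcg2a fell by 2.79. For 21 of the 61 the change was more negative in controls than in knockdown heads. Whether any tissue of the trunk in the 5 dpf controls had a part in the falls of the fatty acid oxidation and antioxidant lists was not tested.

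The changes shared with knockdown heads involved 453 rises and 278 falls. Knockdown heads held few visceral transcripts at either age, but array 1 at 5 dpf held more than arrays 2 and 3. The visceral mean was 5.62 on array 1, against 5.32 and 5.17. Without array 1 knockdown heads had 502 rises and 329 falls, and the shared counts were not redone without it. The shared rises were 17.1% of the rises in controls and 44.0% of those in knockdown heads, and the shared falls 9.82% and 49.6%. Beside these, 5.35% of all genes rose and 2.91% fell in knockdown heads. In controls 13.8% of all genes rose and 14.7% fell. Opposite calls were given to 18 genes that rose in controls and fell in knockdown heads and to 40 that did the reverse. Apart from opsin, lens and Fos genes, the largest shared rises included the protocadherin pcdh2ab7 (2.40 in controls and 2.71 in knockdown heads) and the prion protein gene prnpa (2.21 and 1.65). The largest shared falls after otomp included 4 members of a family of Pim kinase-like genes: pimr152 (-2.84 and -1.59), pimr166 (-2.74 and -1.79), pimr110 (-2.50 and -1.64) and pimr108 (-1.69 and -1.51). Of 31 such genes on the array 18 fell and none rose in controls, and 7 fell and 1 rose in knockdown heads. Their near-identical sequences may let probe sets read each other's transcripts, so the members are not independent.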

How the data were processed

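Total RNA of pooled head tissue was hybridised to Affymetrix ZebGene 1.0 ST arrays. The deposited log2 values per probe set were made by the authors with RMA, per the submitters' processing notes; version and settings: not given in the sources used here. Values lie between 0.987 and 14.2 and were used as deposited. Of 75212 probe sets, 20806 had 1 gene symbol, 855 several and 53551 none here; symbols were updated by Entrez identifier, and the brightest probe set per symbol gave 19260 genes. Control heads at 10 minus 5 dpf, the same in knockdown heads, and the difference of these changes were tested on all 30 arrays with 1 mean per group (20 residual and 6.05 prior degrees of freedom), two-sided, in limma 3.58.1 under R 4.3.3, with Benjamini-Hochberg adjustment over all genes. The fit was tested on simulated data. Genes on a visceral list were taken out of the other of the 61 lists, and lists are described by counts and medians with no test. The members and lists were chosen with earlier results of these data known.

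The rule first took genes past the threshold in controls whose arrays did not overlap, clone-based symbols left out. Among them it named the 20 largest rises, the 12 largest falls on a visceral list and the 20 largest on none. From the same genes it named the 15 largest rises and falls shared with knockdown heads. Without these filters it also named the 4 members of each list with the smallest p. Of 153 genes given with values 101 came from the rule and 52 were added after their values were seen. Alternatives were an intensity trend, leaving out dim genes or visceral genes, a second quantile normalization, median centring over all genes or over non-visceral genes, the mean over a gene's probe sets, array weights, a block for the replicate number, a fit of the compared arrays alone, the visceral mean as a covariate, a minimum difference of 1, and each array left out in turn. The number of arrays limits the precision.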

Additional observations from a re-analysis of the deposited data

Results flagged for a closer look

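The change between 5 and 10 dpf differed between control and knockdown heads by the test of that difference for 739 genes with a larger value in controls and for 1192 with a smaller one. Each value given next is the log2 change in control heads minus that in knockdown heads for a gene named above that passed this test. For genes of pancreas, liver and intestine such a difference follows from the choice of knockdown heads.

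Among pancreas genes it was -6.95 for prss59.1, -6.52 for ctrb.3, -6.09 for cpa5, -6.32 for ela2, -6.25 for amy2a, -0.83 for gcga and -1.33 for sst2. Liver genes gave -6.40 for fetub, -6.72 for apobb.1, -6.08 for apoc2, -4.30 for ttr, -3.62 for fgb, -2.39 for cyp7a1 and -1.38 for hnf4a. Intestine, yolk and kidney genes gave -3.69 for fabp2, -3.88 for slc15a1b, -4.74 for apoa1a, -2.60 for vil1, -3.65 for dgat2, -3.56 for apoea and -3.39 for pdzk1. Large falls outside these lists gave -5.13 for plac8.1, -5.31 for a2m2h, -4.21 for hpda, -4.40 for miox, -4.04 for selenop2, -3.18 for gamt, -2.98 for ucp1 and -3.43 for agt. Heart, muscle and hox genes gave -1.82 for hoxb5b, -1.30 for hoxb4a, -1.34 for hoxc6a, -1.58 for gata4, -1.70 for mylpfb, -2.21 for actn3a, -1.16 for ckma and -1.44 for pvalb1.

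In the eye the difference was 0.62 for gnat2, 1.25 for grk1b, 1.48 for gucy2d, 1.19 for grk7a, 1.23 for guca1c, 1.05 for guca1d, 0.88 for rbp4l, 1.01 for grm6b, 2.53 for crygm2d16, 2.16 for crygm2d17 and 0.91 for bfsp2. In the brain and pituitary it was 1.06 for grin1b, 0.80 for grik1a, 0.77 for gria3a, 0.83 for grin2bb, 0.83 for inaa, 0.79 for gnrh2, 0.83 for gnrh3, 0.70 for ghrhra, 1.03 for pax6a and -1.0 for fa2h. Genes of ear, bone, teeth, skin and thymus gave 0.64 for pcdh15a, 1.05 for tcirg1a, -2.40 for scpp5, -1.80 for scpp9, -1.55 for odam, -3.80 for atp1a1a.4 and -1.57 for ccl25a. Clock genes gave 1.35 for nfil3-2, 1.20 for nfil3-5, 1.39 for rorcb, 0.58 for bmal1a and 0.52 for clocka. Insulin and growth genes gave 0.85 for irs1, 0.63 for insrb, 0.63 for igf1rb, 0.85 for grb10a, -1.26 for igfbp2a and 1.35 for arrdc3b. Metabolic genes, of which gapdh is also on a muscle list, gave -2.71 for gapdh, -2.60 for oxct1b, -1.51 for acaa2, -2.20 for elovl2, -1.49 for dhcr7 and -2.36 for abcg2a.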

How the results depend on the processing

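With a difference of at least 1 also required, 256 genes rose and 774 fell in control heads, 106 and 91 in knockdown heads, and 108 and 599 differed above and below 0. With only the compared arrays in the fit these counts were 1536 and 2069, 209 and 124, and 252 and 691. Leaving out genes with a dim mean over the 30 arrays gave 1603 falls in controls, with 11 exocrine pancreas, 13 liver and 10 intestine genes among them; members that pass this filter do so by being bright in some group, so these counts support nothing about the lists. Centring arrays on all genes gave 3417 rises and 2509 falls in controls (57.7% rises, against 48.4%), 916 falls in knockdown heads (47.6% rises, against 64.8%) and 1508 differences above 0 (60.2%, against 38.3%). Centring on genes of no visceral list gave 944 falls in knockdown heads and 1353 differences above 0, and a second quantile normalization 1160. Leaving out 1 array gave 2087 to 2323 rises and 2119 to 3086 falls in controls, 502 to 1036 rises and 317 to 717 falls in knockdown heads, 487 to 907 differences above 0 and 843 to 1641 below 0. Falls in the exocrine pancreas list then numbered 26 to 26, in liver 60 to 63 and in intestine 39 to 40.

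With the replicate number as a block, 2607 genes rose and 2814 fell in controls, 987 and 548 in knockdown heads, and 717 and 1161 differed above and below 0. Deviations of same-numbered arrays correlated at r = 0.14, -0.03 and 0.06 in controls and 0.01, -0.05 and 0.07 in knockdown heads. These values cannot tell whether same-numbered pools were related, and the labels do not say. Of the named genes the block ended the call of nr4a2a, as did array weights. With only the compared arrays fitted, nr4a2a, opn1sw1 and per3 lost theirs.

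With the visceral mean as a covariate, which is nearly collinear with age in controls, limma called 0 rises and 0 falls in controls (1249 genes at an unadjusted p under 0.05), 0 differences in either direction, 640 rises in knockdown heads and 0 falls in the exocrine pancreas, liver and intestine lists. Of 153 named genes 43 then changed sign, with log2 differences in control heads of apobb.1 5.42, apoc2 5.36, bfsp1 -0.34, cpa5 0.91, crybg2 -0.075, ctrb.3 1.29, egr1 -0.89, elovl2 0.029, fa2h 0.17, fabp10b -0.21, fetub 9.25, fosb -0.76, gata4 0.051, ghrhra -0.13, gngt2a -0.57, gnrh2 -0.36, gnrh3 -0.36, grb10a 0.93, grik1a -0.48, hnf4a 0.77, hoxc8a 1.74, hpda 7.29, inaa -0.014, ins 0.94, insrb -0.066, irs2a -0.62, kera -0.079, krt5 -0.18, mnx1 1.74, nefmb 0.096, opn1lw2 -0.92, opn1sw1 -0.063, oxct1b 1.49, pax6a -0.18, pde6a -1.09, pdzk1 0.070, plac8.1 0.041, prss59.1 1.24, slc6a5 0.42, socs3a -0.39, stm 0.059, tcirg1a -0.27 and vipb 1.92; none of these fits passed the threshold. Under the other alternatives no named gene changed sign. The number of arrays limits the precision, and dim genes have little signal to fall.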

Other observations

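Blood and immune lists are given beside the shares over all genes in control heads, 13.8% for rises and 14.7% for falls. Of 32 red cell genes other than globins 10 fell (31.2%) and 1 rose, with a median log2 difference of -0.22, and of 60 neutrophil and macrophage genes 13 fell (21.7%) and 2 rose (median -0.21). Of 46 lymphocyte and thymus genes 10 fell (21.7%) and 1 rose (median -0.23), and of 58 genes of antigen presentation and the interferon response 6 rose (10.3%) and 4 fell (6.9%, median 0.09). In knockdown heads these lists gave 3 falls and 2 rises, 3 and 6, 1 and 1, and 0 and 7.

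Of 19 complement and acute phase genes 6 fell (31.6%) and none rose in controls, and of 5 larval globins 1 fell. Of 97 ribosome biogenesis genes 4 rose and 13 fell (13.4%), and of 68 chaperone and unfolded protein response genes 1 rose and 11 fell (16.2%). Of 71 cytosolic ribosomal proteins 6 rose and 1 fell in control heads (median 0.06), and 5 rose and none fell in knockdown heads (median 0.17). Of 79 genes of oxidative phosphorylation 4 rose and 8 fell in controls (median -0.09), against 3 rises and 1 fall in knockdown heads (median 0.18). Of 47 cilia genes 6 rose (12.8%) and 3 fell (6.38%) in controls, at or below the shares over all genes.

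Later control heads are given as levels only, with no test. The mean log2 signal of the sarcomere list was 6.78 at 10 dpf and 7.32, 7.60 and 8.75 at 15, 20 and 30 dpf, and that of hox groups 1 to 5 was 4.94 at 10 dpf and 5.03, 5.11 and 6.10 at these ages.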
